A study of Mus musculus with 9 samples.

Results

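Genes that make or read the 3′ end of histone mRNA were followed in a mouse lymphoma treated with 2 inhibitors of the BET bromodomain proteins. The 7 genes are Slbp, Zfp473, Lsm10, Lsm11, Casp8ap2, Npat and Eri1. They were chosen by name, for their known roles, and found by matching Ensembl identifiers to symbols in the GENCODE M21 annotation. They are 7 of the 43629 genes in the table of counts.

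Most mRNAs end in a poly(A) tail. The mRNAs of the clustered, replication-dependent histone genes instead end just after a short stem-loop, where a dedicated machine cuts the transcript. SLBP binds the stem-loop, the U7 small nuclear ribonucleoprotein pairs with a sequence downstream of it, and factors shared with ordinary polyadenylation carry out the cleavage. The machinery gathers at the histone genes in a nuclear structure called the histone locus body, and in dividing cells it is tied to DNA replication.

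The cells were Eµ-Myc lymphoma cells, clone 4242, a B-cell lymphoma from mice with a Myc transgene under the immunoglobulin heavy chain enhancer. All groups therefore carried the Myc transgene, and all came from 1 clone. Cells were treated for 2 h with JQ1 at 1 µM, with RG6146 at 2.5 µM or with the solvent DMSO, with 3 libraries in each group. JQ1 and RG6146 displace BET proteins, readers of acetylated histones, from chromatin, and they were compared here at different doses. Expression was read by 3′ mRNA sequencing, which counts about 1 read per molecule near a poly(A) end.

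The libraries held 3410161 to 5031717 gene counts. Hexim1, a known marker of BET inhibition, went from 135 ± 5.83 CPM (counts scaled to the library size, mean ± SD, n = 3) under DMSO to 395 ± 3.99 after JQ1 and 372 ± 7.96 after RG6146. Its log2 fold changes were 1.55 ± 0.07 (SE) and 1.46 ± 0.07. All 8 B cell markers had counts. Marker sums here and below are in CPM scaled to library size alone, without TMM. The B cell sum was 684 to 764 CPM under DMSO, 356 to 372 after JQ1 and 378 to 424 after RG6146. Of the 8, 5 fell after each compound at an adjusted p below 0.05, beside 15.4% and 13.5% of all tested genes. Summed myeloid markers spanned 158 to 750, 57 to 273 and 84.8 to 124 CPM in the same order. Summed T and NK cell markers stayed at or below 3.47 CPM in each library, with Ncr1 at 0. Summed erythroid markers spanned 2.78 to 19.2 CPM over all libraries. Summed stromal and endothelial markers were 26.6 to 34.9 CPM under DMSO, 5.3 to 10.7 after JQ1 and 7.35 to 11.1 after RG6146. The part of these markers in the results below was not tested. In RNA from whole cultures, fewer cells of a type and less RNA per cell cannot be told apart.

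Slbp rose after both compounds, Zfp473 fell after both, Npat rose after RG6146 and Eri1 fell after JQ1, while Lsm10, Lsm11 and Casp8ap2 passed no test. A gene was called at an adjusted p below 0.05 in edgeR's quasi-likelihood test over 11002 genes. By this rule 3 of the 7 genes were called after JQ1, where 28.9% of all tested genes were called, and 3 of the 7 after RG6146, where 26% were. With 7 genes, 3 calls lie near the share in the whole table, so their number is not a result about the set. One of the calls after each compound, Zfp473, entered the test only through its DMSO libraries. The median log2 fold change of the 7 genes was -0.15 after JQ1 and -0.05 after RG6146, beside 0.005 and 0.009 over all tested genes. None of the 7 was called between RG6146 and JQ1, where 1 gene in the table was (0.00909%).

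**Figure D1:**
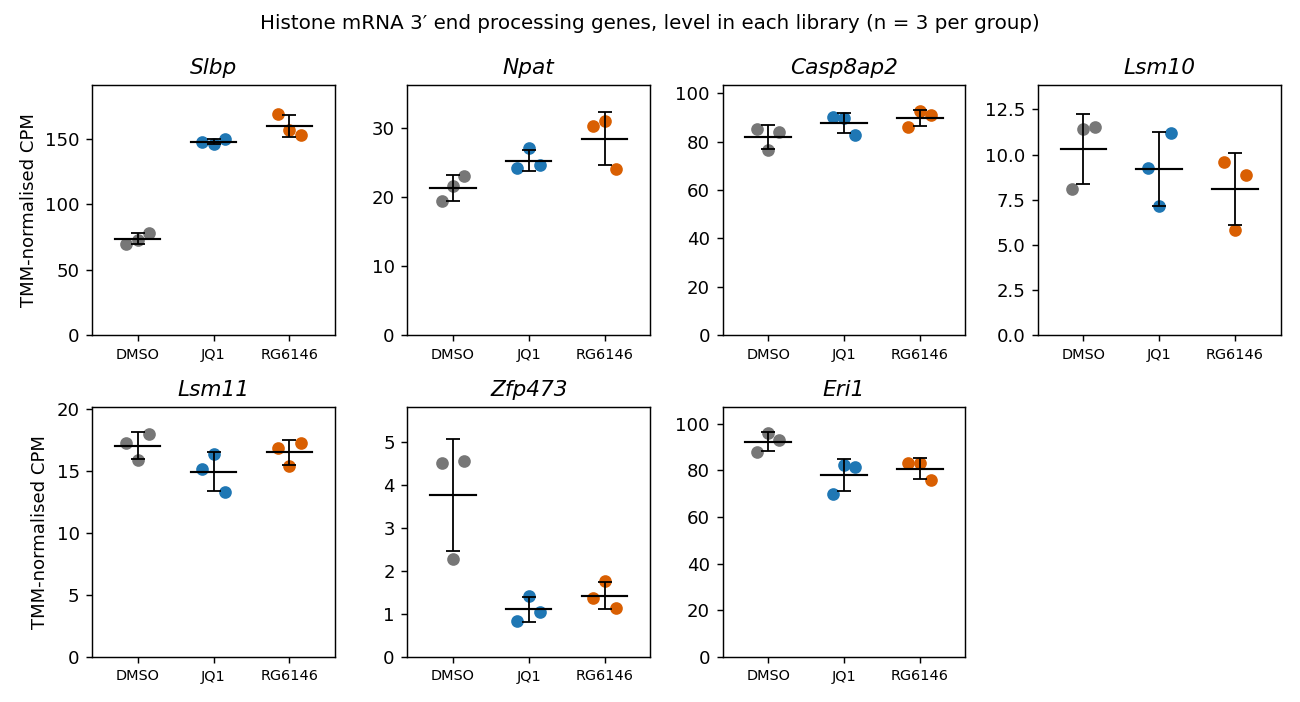
TMM-normalised level (CPM, linear axis from 0, a scale of its own in each panel) of the 7 genes in each library. Points are single libraries and bars are the mean ± SD of 3; the treated libraries of Slbp all lie at 146 CPM or above and the DMSO libraries at 78.4 CPM or below.

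Slbp encodes the stem-loop binding protein, which stays on histone mRNA from its processing in the nucleus to its translation and decay. Levels below are CPM normalised by the trimmed mean of M values (TMM). The DMSO libraries stood at 70.0, 73.1 and 78.4 CPM, the JQ1 libraries at 148, 146 and 150, and the RG6146 libraries at 169, 157 and 153. Every treated library lay above every DMSO library, and the RG6146 libraries also lay above the JQ1 libraries. Slbp rose by a log2 fold change of 1.00 ± 0.08 after JQ1 (95% interval 0.84 to 1.17, adjusted p = 5.92e-08), a level 2.01 times that in DMSO. After RG6146 the log2 fold change was 1.11 ± 0.08 (0.95 to 1.28, adjusted p = 1.93e-08), or 2.16 times. Of all tested genes, 370 had a higher log2 fold change than Slbp after JQ1 and 287 after RG6146. The difference between RG6146 and JQ1 was 0.11 (-0.06 to 0.27, adjusted p = 0.999), so the order of the compounds was not resolved. Counts behind these values were 257 to 739 reads per library. Both calls held in each of the 19 alternative settings, with log2 fold changes of 0.87 to 1.05 for JQ1 and 1.00 to 1.16 for RG6146.

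Slbp (ENSMUSG00000004642) is a protein-coding gene on the minus strand of chromosome 5, from 33634952 to 33652574 on GRCm38 (mm10). Gm10459, an annotated gene of unverified type on the plus strand, overlaps its span over 474 bases, from 33652101 to 33652574. Exons of the 2 genes overlap within this stretch, over a length that was not measured. Gm10459 was not among the genes with counts. The strand setting of the counting is not given in the sources used here, so Gm10459 reads from that stretch may have been counted for Slbp. The stretch lies at the start of Slbp, whereas the libraries count reads near poly(A) ends, and its part in the counts was not tested. The other gene whose treated libraries all lay above DMSO after both compounds was Npat. RefSeq promoter windows, from 250 bases before the start to 50 after it on GRCm38.p6, were matched for 6 of the 7 genes, all but Eri1. The 250 bases before the start of Slbp and Npat are shown because these are the 2 genes of the set called higher after RG6146. Capitals mark CCAAT on either strand.
Slbp, chr5:33652575-33652824, minus strand: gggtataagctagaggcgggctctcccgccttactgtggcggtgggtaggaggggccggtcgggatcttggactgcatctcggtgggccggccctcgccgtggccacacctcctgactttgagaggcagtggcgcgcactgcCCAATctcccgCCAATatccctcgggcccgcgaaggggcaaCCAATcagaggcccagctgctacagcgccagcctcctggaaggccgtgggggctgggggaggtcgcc
Npat, chr9:53536797-53537046, plus strand: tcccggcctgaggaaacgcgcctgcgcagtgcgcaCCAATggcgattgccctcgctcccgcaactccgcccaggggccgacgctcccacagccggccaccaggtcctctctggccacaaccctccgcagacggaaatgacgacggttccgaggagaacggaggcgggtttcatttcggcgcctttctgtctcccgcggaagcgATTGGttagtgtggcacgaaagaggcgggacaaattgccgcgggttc

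CCAAT, the box bound by NF-Y, stood 3 times in the Slbp window, 2 times in those of Npat and Casp8ap2 and 1 time in that of Lsm10. It was found in 38.0% of 27025 promoter windows. The windows of Lsm11 and Zfp473 held none. The Zfp473 window, chr7:44748568-44748867, belongs to a RefSeq start that lies inside the annotated span of the gene given below. E2F words (TTTCCCGC, TTTGGCGC, TTTGCCGC or TTTCGCGC on either strand) were found in 2.33% of all windows and, among the 6, in that of Casp8ap2 as TTTGGCGC. The E-box CACGTG, to which MYC binds, was in none of the 6 windows and in 7.24% of all windows. TATAAA was in none of the 6 and in 14.2% of all, and the GC box GGGCGG was in each of the 6 and in 35.9% of all. The GC box was the one word searched that all 6 windows held.

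Zfp473 encodes ZFP100, a zinc finger protein that links SLBP on the stem-loop to the U7 particle. It had few reads: 24, 8 and 19 under DMSO, 4, 6 and 4 after JQ1, and 6, 7 and 5 after RG6146. In CPM these were 4.51, 2.27 and 4.56, then 0.842, 1.43 and 1.05, then 1.37, 1.77 and 1.14. The lowest DMSO library was still above each treated library. The log2 fold change was -1.78 ± 0.45 after JQ1 (-2.76 to -0.87, adjusted p = 0.00542) and -1.43 ± 0.43 after RG6146 (-2.35 to -0.54, adjusted p = 0.0183). The gene reached the filter on low counts in its 3 DMSO libraries and in 0 of the 6 treated ones, so a gene with these counts had to be lower after treatment to be tested. Without DMSO replicate 1 it was not tested at all. The RG6146 call was lost without DMSO replicate 3 (adjusted p = 0.0803), RG6146 replicate 1 (0.0671) or RG6146 replicate 3 (0.0817), and with ERCC scaling (0.0728) or DESeq2 (0.127).

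Zfp473 (ENSMUSG00000048012) lies on the minus strand of chromosome 7, from 44731480 to 44751050. Exons at its start overlap Vrk3, a kinase gene on the opposite strand, over 2638 bases from 44748413 to 44751050. The strand setting of the counting is not given in the sources used here, so reads from this stretch cannot be assigned to either gene. The stretch holds the starts of both genes, whereas the libraries count reads near poly(A) ends. How many of the Zfp473 reads came from it was not tested. Vrk3 itself had log2 fold changes of 0.06 ± 0.14 and -0.07 ± 0.14, with adjusted p of 0.777 and 0.765.

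Lsm10 and Lsm11 encode the Sm-like proteins that set the U7 particle apart from the splicing particles. Lsm10 had 8.09, 11.4 and 11.5 CPM under DMSO, 9.26, 7.14 and 11.2 after JQ1, and 9.58, 5.82 and 8.86 after RG6146. The groups overlapped in both comparisons. Its log2 fold change was -0.15 ± 0.24 after JQ1 (-0.65 to 0.34, adjusted p = 0.672) and -0.33 ± 0.24 after RG6146 (-0.83 to 0.17, adjusted p = 0.337). The gene had 23 to 48 reads per library and the intervals are wide, so a change of any size within them stays possible. Lsm11 had 17.3, 15.9 and 18 CPM under DMSO, 15.2, 16.4 and 13.3 after JQ1, and 16.9, 15.4 and 17.3 after RG6146. These groups overlapped too, with log2 fold changes of -0.19 ± 0.15 (-0.50 to 0.12, adjusted p = 0.373) and -0.05 ± 0.15 (-0.36 to 0.26, adjusted p = 0.854). Lsm10 (ENSMUSG00000050188) is on chromosome 4 from 126096623 to 126098584, plus strand, and Lsm11 (ENSMUSG00000044847) on chromosome 11 from 45928269 to 45944935, minus strand.

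Casp8ap2 encodes FLASH, which binds LSM11 and brings the cleavage factors to the U7 particle. It had 85.4, 76.5 and 84.2 CPM under DMSO, 90.3, 90.0 and 82.9 after JQ1, and 86.0, 92.6 and 90.9 after RG6146. The RG6146 libraries all lay above DMSO, by little, and the JQ1 libraries overlapped with it. The log2 fold change was 0.10 ± 0.08 after JQ1 (-0.08 to 0.27, adjusted p = 0.436) and 0.13 ± 0.08 after RG6146 (-0.05 to 0.31, adjusted p = 0.283). With scaling to library size alone the JQ1 value turned to -0.04. A change of the size seen in Slbp lies outside both intervals. The gene (ENSMUSG00000028282) spans 32615451 to 32653265 on the plus strand of chromosome 4.

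Npat encodes the scaffold of the histone locus body and coactivator of histone gene transcription, a substrate of cyclin E and CDK2. It had 19.4, 21.6 and 23.0 CPM under DMSO, 24.2, 27.1 and 24.6 after JQ1, and 30.3, 31.1 and 24.1 after RG6146. All 6 treated libraries lay above the DMSO libraries, the lowest of them by about 1 CPM. Npat rose by a log2 fold change of 0.42 ± 0.13 after RG6146 (0.14 to 0.70, adjusted p = 0.0273). After JQ1 the value was 0.25 ± 0.14 (-0.04 to 0.54, adjusted p = 0.185), and the 2 compounds differed by 0.17 (-0.11 to 0.45, adjusted p = 0.999). The RG6146 call was lost without DMSO replicate 1 (0.35, adjusted p = 0.103), DMSO replicate 2 (0.43, 0.0570), RG6146 replicate 1 (0.37, 0.101) or RG6146 replicate 2 (0.36, 0.109). It was also lost with library size scaling (0.31, 0.114), ERCC scaling (0.43, 0.361) and DESeq2 (0.42, 0.147).

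Npat (ENSMUSG00000033054) runs on the plus strand of chromosome 9 from 53537047 to 53574342. Its start lies 307 bases from that of Atm, the DNA damage kinase gene, which runs the other way, so the Npat sequence printed above lies within the stretch between the 2 starts. Atm had 107, 89.3 and 87.3 CPM under DMSO, 73.9, 69.0 and 76.1 after JQ1, and 67.0, 76.2 and 71.1 after RG6146. It fell by 0.38 ± 0.10 on the log2 scale after JQ1 (adjusted p = 0.00700) and by 0.41 ± 0.10 after RG6146 (adjusted p = 0.00454). The 2 divergent genes thus stood on opposite sides of DMSO. The log2 ratio of Npat to Atm within a library was -2.44, -2.02 and -1.90 under DMSO, -1.59, -1.33 and -1.61 after JQ1, and -1.13, -1.28 and -1.54 after RG6146. The mean ratio was 0.61 higher after JQ1 and 0.80 higher after RG6146, each with an exact 2-sided permutation p of 0.1, the smallest that 3 libraries against 3 allow. Every treated library lay above DMSO for Npat and below it for Atm. The outcome of this test was thus set by the values above, and it adds no support to them.

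Eri1 encodes the 3′ exonuclease that binds the stem-loop together with SLBP and trims histone mRNA, also during its decay. It had 88.0, 95.8 and 93.0 CPM under DMSO, 69.9, 82.3 and 81.3 after JQ1, and 83.2, 83.3 and 75.7 after RG6146. All treated libraries lay below the DMSO libraries. The log2 fold change was -0.25 ± 0.09 after JQ1 (-0.44 to -0.06, adjusted p = 0.0499) and -0.19 ± 0.09 after RG6146 (-0.38 to 0.00, adjusted p = 0.130). The JQ1 call sat at the threshold and was lost in 14 of 19 alternatives. It was kept without JQ1 replicate 2 (0.0434) and without RG6146 replicate 3 (0.0463), and leaving out any other library gave adjusted p from 0.0530 without DMSO replicate 1 to 0.230 without JQ1 replicate 1. With scaling to library size Eri1 was called after both compounds, at -0.38 (adjusted p = 0.00559) and -0.30 (0.0257). Eri1 (ENSMUSG00000031527) spans 35465253 to 35496196 on the minus strand of chromosome 8.

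**Figure D2:**
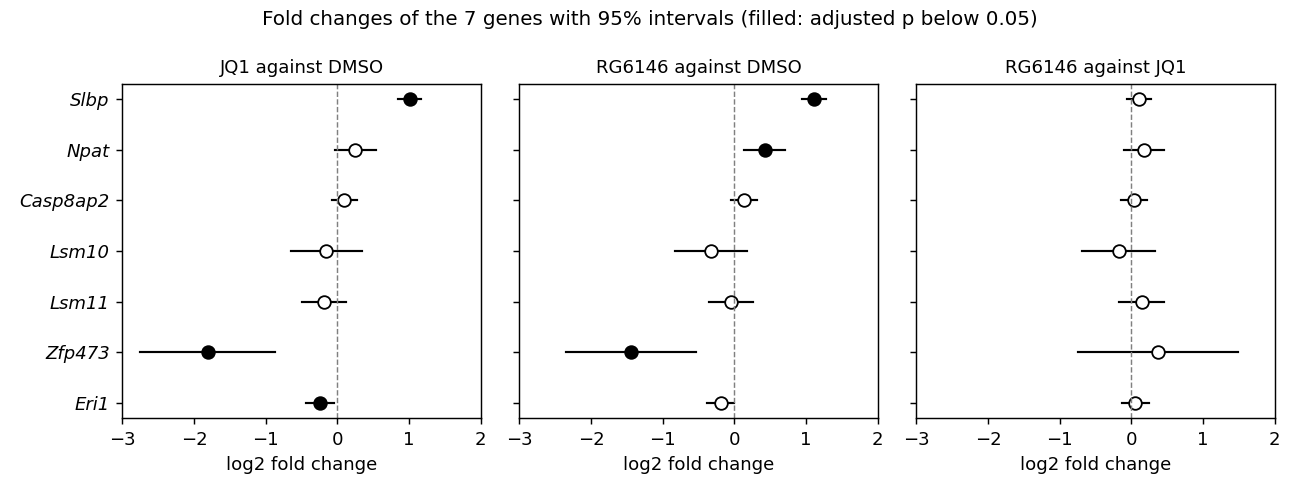
Log2 fold change (x axis) of the 7 genes in 3 comparisons, with 95% intervals from edgeR's quasi-likelihood model and filled points for an adjusted p below 0.05. Slbp stands clear of 0 in both comparisons with DMSO, Zfp473 has the widest intervals, and each interval between RG6146 and JQ1 crosses 0.

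In all, 4 of the 7 genes had JQ1 libraries that did not overlap with DMSO, beside 42.6% of all tested genes, and 5 of 7 had such RG6146 libraries, beside 40.9%. Between the compounds 1 of 7, Slbp, did not overlap, beside 9.93%. The 7 genes did not move one way: Slbp and Npat lay above DMSO after both compounds and Zfp473 and Eri1 below. Zfp473 is counted in both comparisons with DMSO, though it entered the test only through its DMSO libraries. Its place below DMSO is therefore no support.

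Slbp kept both calls in 19 of 19 alternative settings, and Npat lost its RG6146 call in 8 of 19. Zfp473 was tested in 17 settings, in which its RG6146 call was lost in 6. The settings in which it kept a call are no support for it, since it passed the filter through its DMSO libraries.

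**Figure D3:**
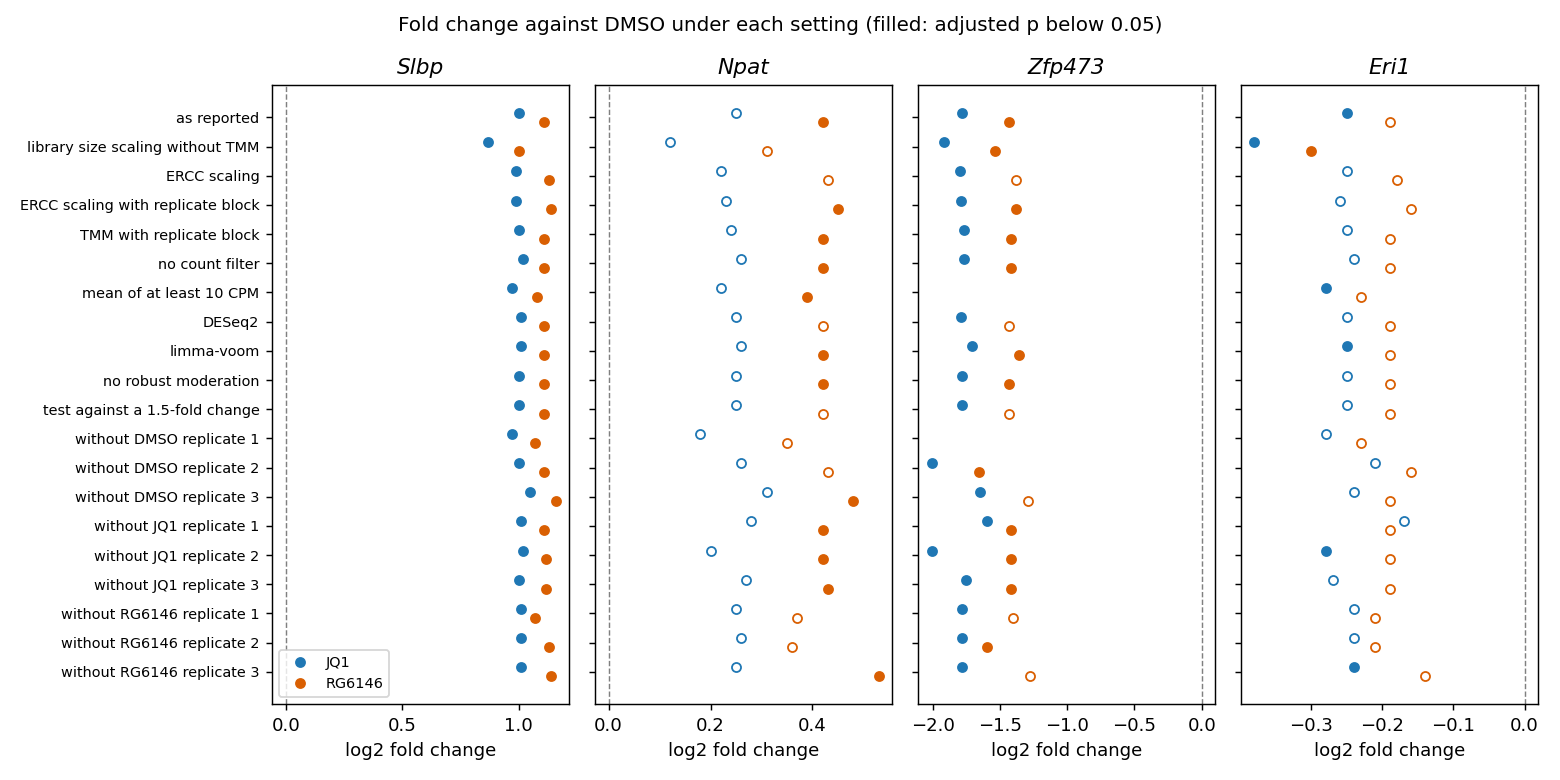
Log2 fold change against DMSO (x axis, its own range in each panel) of the 4 called genes as reported and under 19 alternative settings (rows), with filled points for an adjusted p below 0.05. Slbp stays filled throughout between 0.87 and 1.16, whereas most points of Eri1 are open; Zfp473 has no point where it was not tested.

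Across the 9 libraries, the level of Slbp ran most closely with that of Zfand5 (Pearson r = 0.993), Gm15834 (0.992) and Usp20 (0.991), out of 7406 genes whose mean reached 10 CPM. As many as 553 of these had an r above 0.9 with Slbp. For Npat, 4 genes did, led by Cdkn2aip (0.932), Acsl4 (0.926) and Pgrmc1 (0.921). Eri1 had 18, led by Spin1 (0.947), Smpd4 (0.945) and Crebzf (0.944), and Zfp473 had 154, led by Odr4 (0.988), Trip13 (0.982) and Cdc7 (0.981). These coefficients describe 9 libraries that share 3 treatments and were picked as the highest of many.

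The other genes of the pathway were read from lists of its parts. Over all tested genes 13.6% were called higher and 15.4% lower after JQ1, and 12.5% higher and 13.5% lower after RG6146, and each list's counts are to be read beside these shares. Of the 5 Sm proteins that U7 shares with the splicing particles, 2 rose after JQ1, Snrpg (0.23 ± 0.06) and Snrpd3 (0.31 ± 0.10), and 0 changed after RG6146. These rises were small, and 0 of the 5 were called with scaling to library size or to the ERCC spike-ins. The JQ1 count fell to 1 without DMSO replicate 3 or JQ1 replicate 2 and to 0 without DMSO replicate 1 or JQ1 replicate 1. After RG6146 it was 1 without DMSO replicate 2, JQ1 replicate 2 or RG6146 replicate 1.

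Among 11 genes of the cleavage complex, the cap binding complex and NELF, 2 rose and 3 fell after JQ1, and 1 rose and 3 fell after RG6146. Their median log2 fold change was -0.01 and -0.20. Cpsf2, the CPSF100 subunit that pairs with the endonuclease CPSF73, fell from 220 ± 14.6 CPM to 136 ± 4.54 and 131 ± 3.27, by 0.69 ± 0.08 and 0.74 ± 0.08 on the log2 scale. Cstf2, the CstF64 subunit, fell by 0.44 ± 0.08 and 0.28 ± 0.08. Srrt, which encodes the cap complex partner ARS2, rose by 0.28 ± 0.07 and 0.22 ± 0.07, and Ncbp1, the large cap binding subunit, by 0.23 ± 0.08 after JQ1, with a value of 0.18 ± 0.08 after RG6146 (adjusted p = 0.0999). With scaling to library size 0 of the 11 rose and 5 and 6 fell, and with ERCC scaling 0 rose and 1 fell after each compound. The rises after JQ1 numbered 1 when DMSO replicate 1, 2 or 3 or JQ1 replicate 1 was left out. After RG6146 the rises numbered 0 without DMSO replicate 1 or 2 or any 1 of the RG6146 libraries, and the falls 1 without DMSO replicate 1 or 2 or RG6146 replicate 1 or 2.

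Of 12 genes of the histone locus body and of histone gene transcription, 1 rose and 2 fell after JQ1 and 2 rose and 2 fell after RG6146. Pou2f1, which encodes OCT1, the factor that binds the octamer in H2B gene promoters, fell from 132 ± 3.25 CPM to 44.8 ± 2.76 and 43.9 ± 1.11. This was a log2 fold change of -1.56 ± 0.09 after JQ1 (adjusted p = 6.32e-10) and -1.59 ± 0.09 after RG6146 (6.25e-10). E2f2 fell by 0.55 ± 0.10 and 0.64 ± 0.10. Trrap, a cofactor of histone acetyltransferases that works with NPAT, rose by 0.65 ± 0.12 and 0.67 ± 0.12, and Ccne2, a cyclin E gene, rose by 0.36 ± 0.12 after RG6146, with 0.16 ± 0.12 after JQ1 (adjusted p = 0.356). The rises after RG6146 numbered 1 without DMSO replicate 1 or 3 or RG6146 replicate 1 or 2 and with library size or ERCC scaling. The rises after JQ1 numbered 2 without JQ1 replicate 3 and 0 with ERCC scaling.

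Export, translation and decay of histone mRNA were represented by 17 genes, of which 16 were tested. After JQ1 2 rose and 3 fell, and after RG6146 2 rose and 2 fell. The mRNA export receptor gene Nxf1 rose by 0.58 ± 0.08 and 0.59 ± 0.08, and the uridylyltransferase gene Tut7 by 0.40 ± 0.10 and 0.34 ± 0.10. Exosc10, the nuclear exosome nuclease, fell by 0.72 ± 0.11 and 0.73 ± 0.11, and Xrn1, the cytoplasmic 5′ to 3′ exonuclease, by 0.43 ± 0.10 and 0.33 ± 0.10. With scaling to library size the split was 1 higher and 7 lower after JQ1 and 1 and 4 after RG6146, and with ERCC scaling 0 and 1 after each. The rises after RG6146 numbered 1 without DMSO replicate 2 or 3 or RG6146 replicate 2, and the falls 1 without DMSO replicate 2 or RG6146 replicate 2.

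The SLBP protein is destroyed at the end of S phase, and of 10 genes tied to its phosphorylation and turnover 1 rose after each compound and 0 fell. This was Ddb1, the adaptor of CUL4 ubiquitin ligases, at 0.28 ± 0.07 and 0.26 ± 0.07. It was not called with scaling to library size or to ERCC, nor after RG6146 without DMSO replicate 3 or RG6146 replicate 3. In the general cleavage and polyadenylation machinery, 4 of 18 genes rose and 3 fell after each compound. Cstf3, the CstF77 subunit, rose by 0.77 ± 0.10 and 0.96 ± 0.10, Rbbp6 by 0.58 ± 0.07 and 0.62 ± 0.07, and Pcf11 by 0.65 ± 0.10 and 0.71 ± 0.10. Pabpn1, the nuclear poly(A) binding protein, fell by 0.51 ± 0.10 and 0.35 ± 0.10. The falls after RG6146 numbered 1 without DMSO replicate 1 or RG6146 replicate 3. ERCC scaling left 1 rise after JQ1 and 2 after RG6146, with 0 falls.

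**Figure D4:**
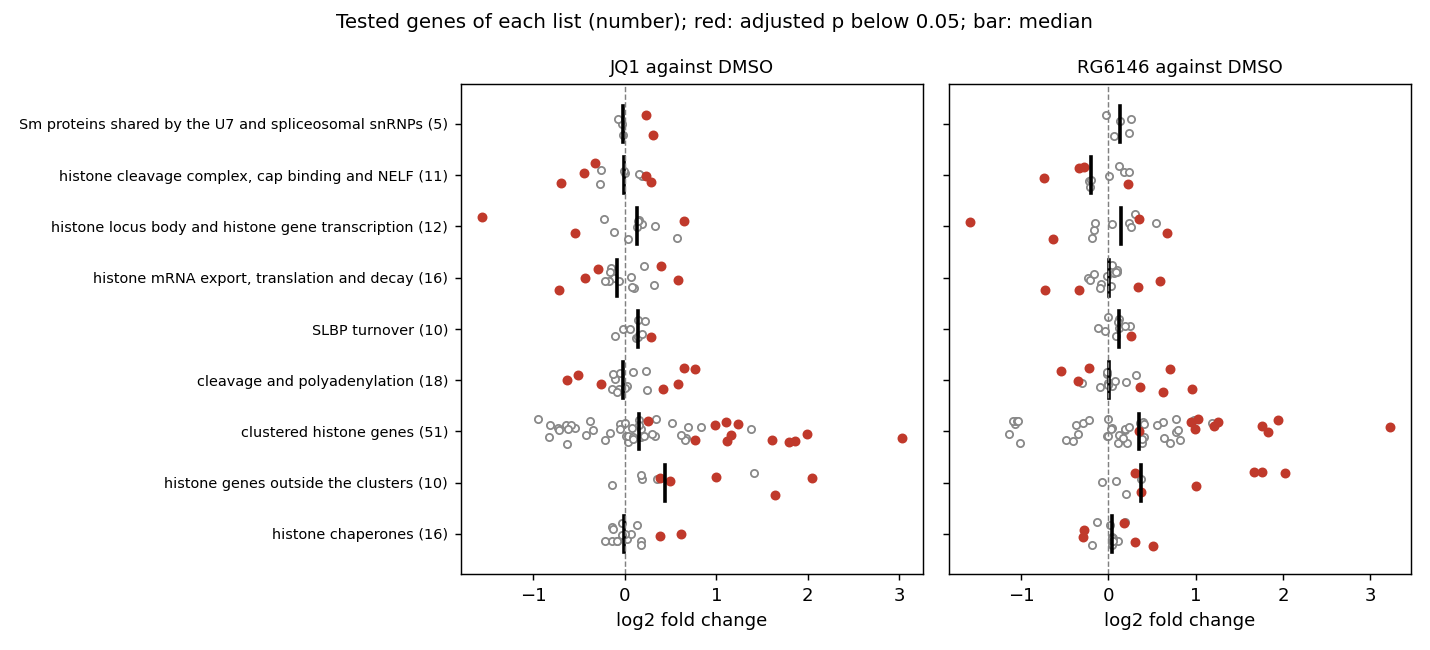
Log2 fold change (x axis) of the tested genes of 9 lists (rows, number tested in brackets) after JQ1 and RG6146. Points are genes, red for an adjusted p below 0.05, and the bar is the list's median. The red points of the 2 histone gene lists all lie to the right of 0, with Hist1h2bc at 3.03 and 3.22. Some of these genes passed the filter only with their treated libraries, and the libraries count reads near poly(A) ends.

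Histone mRNAs themselves are the substrate of the machinery. Libraries of this kind are primed at poly(A), which processed histone mRNA lacks, so the counts need not follow the processed mRNA. How far they do was not tested. Of 64 clustered histone genes, 51 had enough reads, and 12 rose after JQ1 and 10 after RG6146, with 0 lower in each, or 1 lower after JQ1 without JQ1 replicate 3. Over all tested genes 13.6% were higher and 15.4% lower after JQ1, and 12.5% and 13.5% after RG6146. The medians were 0.16 and 0.35, beside 0.005 and 0.009 over all tested genes. With library size scaling 10 and 10 were called higher, and with ERCC scaling 10 and 9. Hist1h2bc rose from 4.71 ± 1.16 CPM to 39.3 ± 2.28 and 45.0 ± 4.64, a log2 fold change of 3.03 ± 0.16 and 3.22 ± 0.16. Hist2h2be rose by 1.99 ± 0.15 and 1.83 ± 0.15, Hist1h4i by 1.16 ± 0.13 and 1.21 ± 0.13 and the linker histone gene Hist1h1a by 0.77 ± 0.14 and 0.95 ± 0.14. No H2A gene of the clusters was among those called, and Hist1h2ao had 784 to 926 CPM in each of the 9 libraries. Near-identical histone genes can share reads, so single members of this family are uncertain. Some of the called genes, Hist4h4 among them, had too few DMSO reads to pass the filter without their treated libraries.

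The stem-loop that SLBP and ERI1 bind was searched in the annotated transcripts as a run of 16 bases: GG, any 2 bases, CT, any 4 bases, AG, 2 bases that pair with the first 2, and CC. It was found in 44 of the 64 clustered genes (68.8%) and in 127 of 21364 other protein-coding genes (0.594%). Clustered genes without it included short annotated transcripts, such as Hist1h2ai (393 bases) and Hist1h3h (411), and long ones, such as Hist2h2be (2620) and Hist1h2bc (1156). Where an annotated transcript stops before the stem-loop the search cannot find it, so these genes are a mixed group. It took 8 forms, of which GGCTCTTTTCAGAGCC stood in 24 genes, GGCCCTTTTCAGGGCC in 7 and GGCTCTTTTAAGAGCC in 6. The loops below are from 4 called genes whose annotated transcript runs on past the stem-loop and from Hist1h2ao, whose transcript ends 31 bases after it. Each is printed as DNA from the GENCODE transcript with 5 flanking bases on either side and with the stem-loop in capitals, and the coordinates on GRCm38 are those of the capitals.
Hist1h4i, chr13:22040966-22040981, minus strand: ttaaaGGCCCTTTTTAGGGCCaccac
Hist2h3c1, chr3:96247327-96247342, plus strand: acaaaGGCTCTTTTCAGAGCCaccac
Hist2h4, chr3:96262939-96262954, minus strand: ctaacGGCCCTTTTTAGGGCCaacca
Hist4h4, chr6:136803998-136804013, minus strand: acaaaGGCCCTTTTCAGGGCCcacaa
Hist1h2ao, chr13:21810898-21810913, plus strand: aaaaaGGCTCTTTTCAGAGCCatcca

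Genes with the same stem-loop letters had different values. Hist2h3c1 and Hist1h2ao share the capitals, with log2 fold changes of 1.80 ± 0.33 and 0.03 ± 0.07 after JQ1 and 1.76 ± 0.34 and 0.00 ± 0.07 after RG6146. In 22 clustered genes the annotated transcript ran over 100 bases past the stem-loop. Of these 16 were tested, and 7 rose after JQ1 (median 0.43) and 6 after RG6146 (median 0.79). Over all tested genes 13.6% and 12.5% were called higher. In the other 22 genes with a stem-loop the transcript ended within 100 bases, and of 20 tested 2 rose after JQ1 (median 0.05) and 1 after RG6146 (median 0.12). Of 15 tested genes with no stem-loop in the annotated transcript, among them Hist1h2bc and Hist2h2be, 3 rose after each compound (medians 0.15 and 0.38). The limit of 100 bases was set after the values were seen, and the difference between these groups was not tested. Some of the genes that rose did not pass the filter by their DMSO libraries alone. Hist4h4, for one, had 4, 5 and 9 reads under DMSO and Hist2h3c1 had 9, 5 and 10. Genes with such DMSO counts had to be higher after treatment to be tested, so their rises are no support for a difference. Libraries of this kind are primed at poly(A), which processed histone mRNA lacks, and the part of this in the values was not tested.

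**Figure D5:**
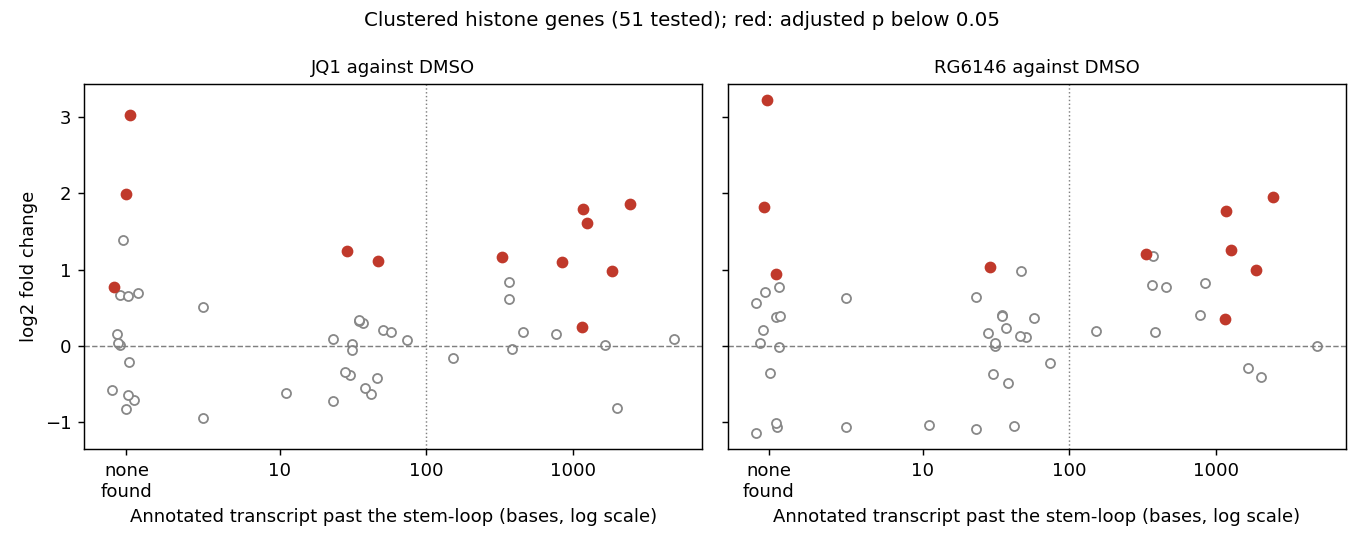
Log2 fold change (y axis) of the 51 tested clustered histone genes against the number of annotated bases past their stem-loop (x axis, log scale, with genes without a stem-loop at the left), red for an adjusted p below 0.05. The dotted line marks 100 bases, a limit set after the values were seen. To its right 7 of 16 genes are red after JQ1 and 6 after RG6146, beside 13.6% and 12.5% of all tested genes called higher. Some of these, such as Hist4h4 and Hist2h3c1, passed the filter only with their treated libraries, and the difference across the line was not tested.

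A further list holds histone genes outside the clusters, most of them genes of variant histones. It was drawn by position and not by 3′ end: H2afx mRNA, for one, is known both with a stem-loop end and with a poly(A) tail. Of 11 such genes 10 were tested, and 5 rose after JQ1 and 6 after RG6146, with 0 lower and medians of 0.44 and 0.37, beside the 13.6% and 12.5% of all tested genes that were higher. The gene called after RG6146 only was H1fx, with 6, 4 and 1 reads under DMSO and 12, 12 and 11 after RG6146. It entered the test only through its treated libraries. With these DMSO counts it had to be higher after treatment to be tested, so its call is no support for a rise. H3f3b, which encodes the replacement histone H3.3, rose from 676 ± 45.9 CPM to 2780 ± 116 and 2748 ± 121, a log2 fold change of 2.04 ± 0.06 and 2.02 ± 0.06. H1f0 rose by 1.64 ± 0.17 and 1.77 ± 0.17, H2afx by 0.99 ± 0.08 and 1.00 ± 0.08, and H2afz by 0.49 ± 0.06 and 0.38 ± 0.06.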

How the data were processed

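RNA (500 ng a sample) was turned into QuantSeq 3′ libraries and read from one end over 75 bases, per the labels' protocols. The authors deposited 1 table of raw counts per gene. Tools named in the submitters' processing notes include cutadapt 1.7, HISAT2 2.1.0 and featureCounts, with the mouse build mm10. Not given in the sources used here are the annotation, the strand setting and the handling of reads with several matches.

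Counts were tested with edgeR 4.0.16 in R 4.3.3. Genes passed filterByExpr (minimum count 10, 11002 genes), libraries were scaled by TMM, and a quasi-likelihood model with robust moderation and the group as its only term was fitted to all 9 libraries. The 92 ERCC spike-ins were left out. The p-values were adjusted over the whole table by Benjamini-Hochberg, with a threshold of 0.05. Fold changes carry edgeR's prior count, and intervals do not. The script was tested on simulated data. The median gene's 95% interval reached 0.351 (log2) to either side. All cultures were of 1 clone, and p-values measure the spread between those cultures only. Replicates differed by more than sampling noise.

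The genes, the lists and the tests were chosen with earlier results of these data known. Named were the 7 genes, up to 4 genes of each list with the smallest p, Hexim1, genes that overlap the 7 or start within 1000 bases of them on the other strand, and the 3 genes most like each called gene. From the histone lists, further genes were chosen after their values were seen. Alternatives were other scalings, filters, tools (DESeq2 1.42.0, limma-voom 3.58.1), a replicate block, a test against a 1.5-fold change and leaving out each library.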

Additional observations from a re-analysis of the deposited data

How the results depend on the processing

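Each of the 9 libraries came from 1 clone at 1 time, and genes with few reads, such as Zfp473 and Lsm10, allow only wide intervals. Scaling sets the direction of small changes. Scaling by library size alone put the median of all tested genes at -0.13 after JQ1 and -0.10 after RG6146. Of the called genes 27.2% and 29.7% were then higher, against 47.0% and 48.0% with TMM. With ERCC scaling it was 37.2% and 42.3%. ERCC scaling called 1196 genes after JQ1 and 1082 after RG6146, and 1 of the 7 genes after RG6146. The test against a 1.5-fold change called 599 and 532 genes and 1 of the 7 after RG6146, and DESeq2 called 1902 genes and 1 of the 7 after RG6146. Between RG6146 and JQ1, where 427 genes had an unadjusted p below 0.05, 4 genes were called with ERCC scaling and 17 with no count filter. There 0 were called with the replicate block, limma-voom, a mean of at least 10 CPM, no robust moderation or the 1.5-fold test.

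Leaving out 1 library gave 1 to 3 of the 7 genes called after JQ1, 1 to 3 after RG6146 and 0 to 0 between the compounds. The count was 1 after both without DMSO replicate 1 and after RG6146 also without RG6146 replicate 1. Over the table the counts were 2492 to 3248, 2239 to 2970 and 0 to 2. Direction turned for Casp8ap2 after JQ1 (-0.04) with library size scaling. It also turned, or reached 0, on leaving out 1 library for Eri1 (-0.02 to 0.10), Casp8ap2 (0 to 0.06) and Lsm10 (-0.33 to 0) between RG6146 and JQ1, for Lsm10 after JQ1 (-0.32 to 0) and for Lsm11 after RG6146 (-0.09 to 0).

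Over all tested genes, levels were not paired by replicate number. Same-numbered libraries had correlations of -0.0627 to 0.103 over 9 pairs, and 1 of 9 libraries correlated best with its own number. The share of ERCC reads did follow the number. From replicate 1 to 3 it was 1.54%, 1.2% and 1.14% under DMSO. After JQ1 it was 1.39%, 1.23% and 0.968%, and after RG6146 1.37%, 1.19% and 0.982%. With the number as a block, TMM scaling called 3092, 2789 and 0 genes and 2, 3 and 0 of the 7, and ERCC scaling 2829, 2604 and 1 genes and 2, 3 and 0 of the 7. The values given above with ERCC scaling for single genes and for the lists are those without the block. Fewer genes were called against DMSO over the whole table in that setting, so a call lost there need not mean a smaller change.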

Other observations

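Histone chaperones carry the new histone proteins to chromatin. Of 16 genes tested, 2 rose and 0 fell after JQ1, beside 28.9% of all tested genes called, and 3 rose and 2 fell after RG6146, beside 26%. Ubn1, a subunit of the HIRA complex that deposits H3.3, rose by 0.61 ± 0.09 and 0.51 ± 0.09 on the log2 scale, and Rbbp4, a histone binding protein of several chromatin complexes, by 0.39 ± 0.08 and 0.30 ± 0.08. Ssrp1, a subunit of FACT, had -0.14 ± 0.08 after JQ1 (adjusted p = 0.194) and fell by 0.29 ± 0.08 after RG6146. Npm1 rose by 0.18 ± 0.06 after RG6146. The falls after RG6146 numbered 1 without DMSO replicate 2 or 3 or RG6146 replicate 1, and 0 without RG6146 replicate 2. With library size scaling the JQ1 split was 2 higher and 3 lower, and with ERCC scaling none of the 16 was called.

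Several near-identical H2A genes, chosen after their values were seen, varied widely between the libraries of each treated group and little between the DMSO libraries. Hist1h2ab stood at 390, 438 and 431 CPM under DMSO, at 339, 72.1 and 404 after JQ1 and at 179, 20.5 and 412 after RG6146. Hist1h2ap stood at 425, 425 and 471, then 279, 79.3 and 325, then 176, 15.7 and 440. In both, JQ1 replicate 2 and RG6146 replicate 2 were the low libraries of their groups. Hist1h2ao did not show this, with 926 CPM in JQ1 replicate 2 and 836 in RG6146 replicate 2. Neither Hist1h2ab nor Hist1h2ap passed the test, with log2 fold changes of -0.63 ± 1.03 and -0.95 ± 1.05 after JQ1.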
